A study of Mus musculus with 503 samples.

Results

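The genes that make, cut or bind hyaluronan were followed through single perivascular cells of the mouse spinal cord, before and after injury. They were chosen by name from the count table, on the basis of earlier results of these same cells: 3 synthases (*Has1*, *Has2*, *Has3*), 3 genes of breakdown (*Cemip*, *Hyal1*, *Hyal2*) and 4 genes whose proteins bind the polymer (*Cd44*, *Vcan*, *Tnfaip6*, *Hapln1*), 10 of 56701 gene rows in all. Because the levels in the 4 groups were themselves known when the genes were selected, all levels and differences below are descriptions and none was tested.

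Each cell came from a mouse that carried 3 transgenes: GLAST-CreERT2, a tamoxifen-inducible Cre driven by the promoter of the glutamate transporter GLAST (*Slc1a3*), R26R-tdTomato, its Cre-dependent reporter, and Pdgfrb-eGFP, which marks cells of the vessel wall: pericytes, fibroblasts and smooth muscle (vSMCs, vascular smooth muscle cells). The mice were adult, the labels give them as female, and all 4 groups carried the same alleles and received tamoxifen. The study's methods give females only for crush lesions, while its reporting summary gives both sexes for sequencing. tdTomato records a past recombination event and not present GLAST activity, so a tdTomato+ cell may descend from a cell that expressed GLAST at the time of tamoxifen, and an unrecombined GLAST cell falls among the tdTomato- cells. The 2 populations were sorted as tdTomato+EGFP+ and tdTomato-EGFP+, from uninjured cord and from cord at 3 days after a complete crush (spinal cord injury, SCI), and 468 of 503 labelled cells were kept. Since every cell was EGFP+, the sorts are called tdTomato+ and tdTomato- cells below. On plates 209 and 213 the uninjured groups held 65 and 72 tdTomato+ and 46 and 60 tdTomato- cells, and on plates 211 and 215 the injured groups held 88 and 34 tdTomato+ and 58 and 45 tdTomato- cells. The labels of the injured cells state 3 days and the series text states 5 days, and the labels were followed. The sorts can be compared within a plate, while injury and plate cannot be told apart. No label names an animal, so each group was treated as 1 sample, no p-value or standard error was computed from cells, and no difference has a replicate check.

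Hyaluronan is a long unbranched sugar polymer of the extracellular matrix. The HAS enzymes sit in the plasma membrane and extrude the growing chain from sugar nucleotides of the cytoplasm, and different enzymes then cut it outside the cell and in lysosomes. Large hyaluronan hydrates and loosens tissue, fragments are associated with inflammation, and proteins such as versican and CD44 tie the polymer to the matrix and to the cell surface. In the injured central nervous system the polymer is known as part of the perineuronal and scar matrix.

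The positions of the genes are those of RefSeq on GRCm38.p6, a patch release of the mm10 assembly that the submitters' processing notes name. The count table carries symbols and no coordinates, and the study names more than 1 assembly version, so these positions describe RefSeq and not the authors' counting. *Has1* is at chr17:17833691-17855589, *Has2* at chr15:56665627-56694546 and *Has3* at chr8:106870242-106882902. *Cemip* is at chr7:83932857-84086693, *Cd44* at chr2:102811141-102901669 and *Tnfaip6* at chr2:52038113-52056681. *Hyal2* (chr9:107567873-107572778) and *Hyal1* (chr9:107576950-107581699) are neighbours on the plus strand, 4171 bases apart, and *Hapln1* (chr13:89540529-89611832) and *Vcan* (chr13:89655309-89743027) are 43476 bases apart on opposite strands. The antisense gene *Has2os* (chr15:56689944-56694460) lies inside *Has2*, and *Naa80* and *Hyal3* overlap *Hyal1* by 1031 and 404 bases, and *Spaca6* and *Gm36907* overlap the span of *Has1*. Whether the authors counted by strand is not given in the sources used here, so counts of these overlapping genes cannot be assigned with certainty.

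Promoters are shown for 3 genes whose level was higher in injured than uninjured tdTomato+ cells (*Has1*, *Cd44*, *Tnfaip6*) and for *Cemip*, whose level was lower there. Each is the RefSeq GRCm38.p6 sequence of the 250 bases before a start site of the RefSeq promoter table, 5′ to 3′ on the gene's own strand, and capitals mark a matched motif. That start is not always the outer end of the gene span given above: the window of *Has1* lies wholly inside the span, that of *Cemip* mostly, that of *Cd44* by a few bases and that of *Tnfaip6* not at all. The motifs were TATAAA for the TATA box, TGANTCA for AP-1, TGACGTCA for CRE and GGANTTTCC for kappaB, searched for on both strands. *Has1* is read from chr17:17855189-17855438 (minus), *Cd44* from chr2:102901666-102901915 (minus), *Tnfaip6* from chr2:52037863-52038112 (plus) and *Cemip* from chr7:84086506-84086755 (minus).
Has1: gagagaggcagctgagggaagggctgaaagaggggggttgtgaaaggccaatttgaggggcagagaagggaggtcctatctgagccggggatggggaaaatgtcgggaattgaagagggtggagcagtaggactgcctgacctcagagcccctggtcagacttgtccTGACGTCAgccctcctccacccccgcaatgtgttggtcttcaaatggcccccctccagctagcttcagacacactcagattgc
Cd44: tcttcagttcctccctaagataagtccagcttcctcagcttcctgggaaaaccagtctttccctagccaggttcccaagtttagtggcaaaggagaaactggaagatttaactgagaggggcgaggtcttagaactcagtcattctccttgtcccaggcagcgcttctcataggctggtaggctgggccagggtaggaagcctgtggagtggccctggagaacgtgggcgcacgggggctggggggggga
Tnfaip6: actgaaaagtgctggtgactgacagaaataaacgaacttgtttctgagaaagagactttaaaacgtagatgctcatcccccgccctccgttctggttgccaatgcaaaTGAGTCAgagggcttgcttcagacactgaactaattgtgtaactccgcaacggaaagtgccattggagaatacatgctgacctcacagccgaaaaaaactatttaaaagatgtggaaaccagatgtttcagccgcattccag
Cemip: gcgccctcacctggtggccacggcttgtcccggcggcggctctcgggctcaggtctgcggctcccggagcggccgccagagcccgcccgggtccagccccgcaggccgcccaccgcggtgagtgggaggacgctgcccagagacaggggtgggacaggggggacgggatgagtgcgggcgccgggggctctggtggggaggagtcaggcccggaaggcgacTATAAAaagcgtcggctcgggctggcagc

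In these windows *Has1* held a CRE whose first base was at -83 from the start, *Tnfaip6* an AP-1 match at -142 and *Cemip* a TATA match at -29, and *Cd44* held none of the 4 motifs. Of all 32851 promoters of this length, 1.55% held the CRE, 6.75% AP-1, 12.4% TATA and 1.07% kappaB. *Hyal1*, *Hyal2*, *Vcan* and *Hapln1* held none of the 4 either. Of the 10 genes, 8 were matched in the promoter table, and *Has2* and *Has3* were not. A match describes letters only.

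The groups held between 25645409 and 38406035 counts in the kept cells, with a median per cell between 204006 and 271660.5. Depth was uneven in injured tdTomato+ cells, with a median of 328802 counts per cell on plate 211 and of 14770 on plate 215, so the summed level of that group follows plate 211. *Slc1a3*, the gene behind the Cre, was at 211.5 and 31.5 CPM (counts scaled to a total of 1000000) in the tdTomato+ and tdTomato- cells of uninjured cord and at 206.5 and 10.7 CPM in those of injured cord, and *Pdgfrb* had a count in 90.6% to 100% of the cells of each group. Cell type markers differed between uninjured and injured groups, and their sums cannot tell a change of makeup from a change of marker level within cells. The summed level of 9 pericyte markers was 11378 CPM in uninjured and 797 CPM in injured tdTomato+ cells (12552 and 11536 CPM in tdTomato-). The 8 perivascular fibroblast markers summed to 3619.5 and 19718 CPM (1867 and 8425 CPM), and 6 cycling markers to 13.1 and 922 CPM (4.02 and 600.2 CPM). No gene of these 3 lists was at 0 in any group. The 5 endothelial markers summed to 3635 and 3947 CPM in the uninjured groups and to 345 and 1423 CPM in the injured ones, and 5 microglia and macrophage markers to between 12.8 and 61.1 CPM. The part of cell makeup in the summed levels below was not tested.

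Levels below are CPM of counts summed over the kept cells of a group, with an exact Poisson 95% interval that covers counting error only, and differences are of log2(CPM + 1), which understates the change of genes near 1 CPM. A difference was counted as past 2-fold when it was at least 1 in size, reached 10 CPM in the highest group compared and had the same direction on both plates (for the sorts) or in each of the 4 pairings of 1 injured with 1 uninjured plate (for injury). In injured tdTomato+ cells, 4 of the 10 genes were past 2-fold higher than in uninjured ones (*Has1*, *Has2*, *Cd44*, *Tnfaip6*) and 2 were lower (*Cemip*, *Hyal1*), where 10.8% of all 11429 genes at 10 CPM were higher and 34.3% lower. In tdTomato- cells 4 were higher after injury (*Cemip*, *Cd44*, *Vcan*, *Tnfaip6*) against 9.52% of all 11434 genes, and 1 was lower (*Hyal1*) against 16.98%. Between the sorts of uninjured cord, tdTomato+ minus tdTomato-, 2 were higher (*Cemip*, *Vcan*) and 1 lower (*Has1*), with 4.31% and 3.61% of all 11198 genes. Between the sorts after injury 5 were higher (*Has1*, *Has2*, *Cemip*, *Vcan*, *Tnfaip6*) against 4.31% of all 10631 genes, and none was lower against 17.9%. The injury effect was larger in tdTomato+ cells for 3 (*Has1*, *Has2*, *Tnfaip6*) against 4.57% of all 12081 genes, and smaller for 2 (*Cemip*, *Hyal1*) against 20.6%. Since the levels chose the genes, nothing is read from these shares.

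The median difference over the 10 genes was 0.33 for injury in tdTomato+ cells, beside -0.59 over all genes at 10 CPM, and 0.20 beside -0.20 in tdTomato- cells. It was 0.20 beside 0.01 between the uninjured sorts, 0.91 beside -0.32 between the injured sorts and -0.20 beside -0.39 for the difference of the injury effects. The number of the 10 genes that reached 10 CPM was 6, 9, 9, 8 and 9 in the uninjured sorts, the injured sorts, injury in tdTomato+, injury in tdTomato- and the difference, and *Hapln1* did so in none. CPM itself sets the centre of these values: with TMM factors the median of all genes for injury in tdTomato+ cells was 0.13 in place of -0.59, and 52.5% of the calls over all genes were higher in place of 24%. The same share moved from 35.9% to 56.4% for injury in tdTomato- cells, from 19.4% to 43.1% for the injured sorts and from 18.2% to 39.2% for the difference of injury effects. With DESeq2 size factors the median for injury in tdTomato+ cells was 0.27. All 24 differences of the genes past 2-fold kept their direction under both scalings, and 22 stayed at 2-fold or more.

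**Figure D1:**
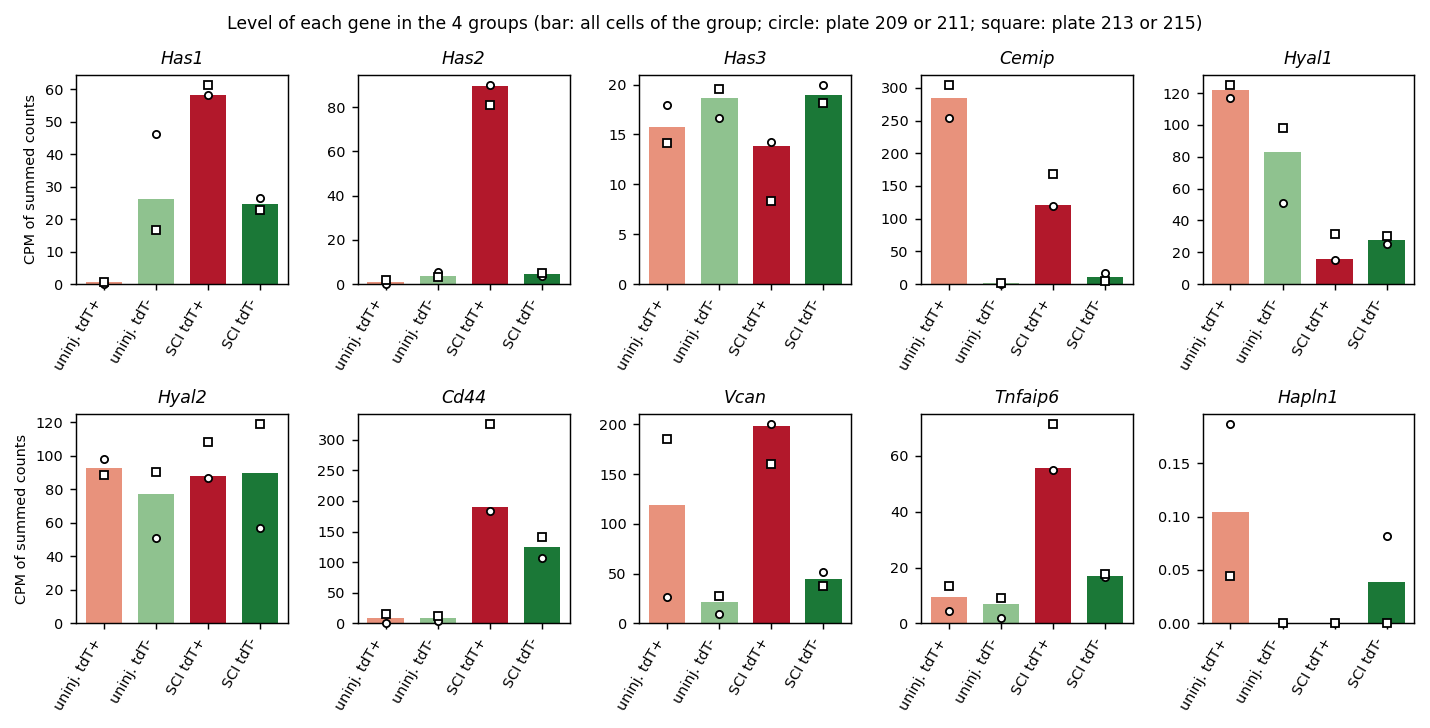
Level of each of the 10 genes, in CPM of summed counts on a linear axis that starts at 0, in the 4 groups (tdT, tdTomato; uninj., uninjured). Bars are all kept cells of a group, circles plate 209 or 211 and squares plate 213 or 215; the bar of *Has2* reaches 89.7 CPM in injured tdTomato+ cells and at most 4.41 CPM in the others, while *Cemip* is highest, at 284 CPM, in uninjured tdTomato+ cells.

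The synthases showed 3 different patterns. *Has2*, the synthase that mouse embryos cannot do without, was low in 3 groups and high in 1. Its level was 0 CPM on plate 209 and 1.93 CPM on plate 213 in uninjured tdTomato+ cells, 5.33 and 2.96 CPM in uninjured tdTomato- cells, and 3.77 and 4.98 CPM on plates 211 and 215 in injured tdTomato- cells. In injured tdTomato+ cells it was 90.2 and 81.1 CPM. The plates of that group lay above every plate of the other 3 groups. Over the groups the level was 89.7 CPM (86.4 to 93.1) after injury against 1.12 CPM (0.810 to 1.51) before it in tdTomato+ cells, a difference of 5.42 on the log2 scale (4.81 to 6.51 over the plate pairs), and the difference in tdTomato- cells was 0.20 (-0.41 to 0.60), with both signs among the pairs. The difference between the 2 injury effects was 5.22 (4.21 to 6.92).

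At the level of cells, *Has2* had a count in 71 injured tdTomato+ cells (58.2%, exact binomial interval 48.9% to 67.1%), with a median cell at 15.03 CPM and the highest at 612 CPM. The shares in the other groups were 3.65%, 5.66% and 17.5%, and the median cell there had no count. On plate 209, 0 of 65 uninjured tdTomato+ cells had one, which allows a share of up to 4.62%. After each cell was thinned to 20000 counts, which removes the difference in depth, the share was 53% in injured tdTomato+ cells and 2.94% in injured tdTomato- cells, and 2.36% and 3.26% before injury. The signal was spread over many cells, since the highest cell held 9.91% of the counts of the group and 31 cells were at 100 CPM or more. *Has2os*, the overlapping antisense gene, was at 9.25 CPM in tdTomato+ cells after injury and at 2.89 CPM before it, and at 1.19 and 0.624 CPM in tdTomato- cells before and after injury.

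*Has1*, another synthase, differed between the sorts before injury as well as after it. It was at 0.124 and 0.717 CPM on plates 209 and 213 in uninjured tdTomato+ cells and at 46.2 and 16.6 CPM in uninjured tdTomato- cells. After injury it was at 58.1 and 61.4 CPM on plates 211 and 215 in tdTomato+ cells and at 26.6 and 22.8 CPM in tdTomato- cells. The order of the sorts was thus reversed between uninjured and injured plates, with no overlap between the sorts within either. The difference between the sorts was -4.21 (-5.39 and -3.36 on the plates) before injury and 1.21 (1.10 and 1.39) after it. Injury gave 5.33 (5.11 to 5.79) in tdTomato+ cells and -0.08 (-0.99 to 0.65) in tdTomato- cells, a difference of 5.42 (4.46 to 6.78).

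The uninjured tdTomato- level of *Has1* came from few cells. Only 9 of those cells had a count (8.49%, 3.96% to 15.5%), the 4 cells at 100 CPM or more held 95.4% of the counts, and 1 cell held 76.4% of the counts of plate 209 and another 94.4% of those of plate 213. Without the highest cell of each group the difference between the uninjured sorts was -3.63. In injured tdTomato+ cells a count was found in 59.02% of cells (49.7% to 67.8%), with a median cell at 4.39 CPM and the highest at 1107 CPM, and in injured tdTomato- cells in 30.1% (21.5% to 39.9%). Thinned to 20000 counts, the shares were 0.787% before and 32% after injury in tdTomato+ cells, and 5.43% and 12.7% in tdTomato- cells.

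*Has3*, the third synthase, was at 15.7 CPM (14.5 to 17.01) and 18.6 CPM (16.97 to 20.3) in the uninjured sorts and 13.8 CPM (12.6 to 15.2) and 18.99 CPM (17.3 to 20.8) in the injured ones. Its plates ran from 8.35 CPM, on plate 215 of injured tdTomato+ cells, to 20 CPM, and the groups overlapped. No comparison of it was past 2-fold, and the largest was -0.43 between the injured sorts. It had a count in 53.8% to 74.8% of cells at full depth and in 24.4% to 32.6% after thinning. Of the counts of the 3 synthases together, *Has3* gave 90.8% in uninjured tdTomato+ cells and 8.55% in injured ones, and *Has2* gave 6.48% and 55.4%. In tdTomato- cells these shares were 38.4% before and 39.6% after injury for *Has3*, and 7.69% and 9.19% for *Has2*. These are shares of counts without correction for transcript length, and are compared across groups and not between genes.

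**Figure D2:**
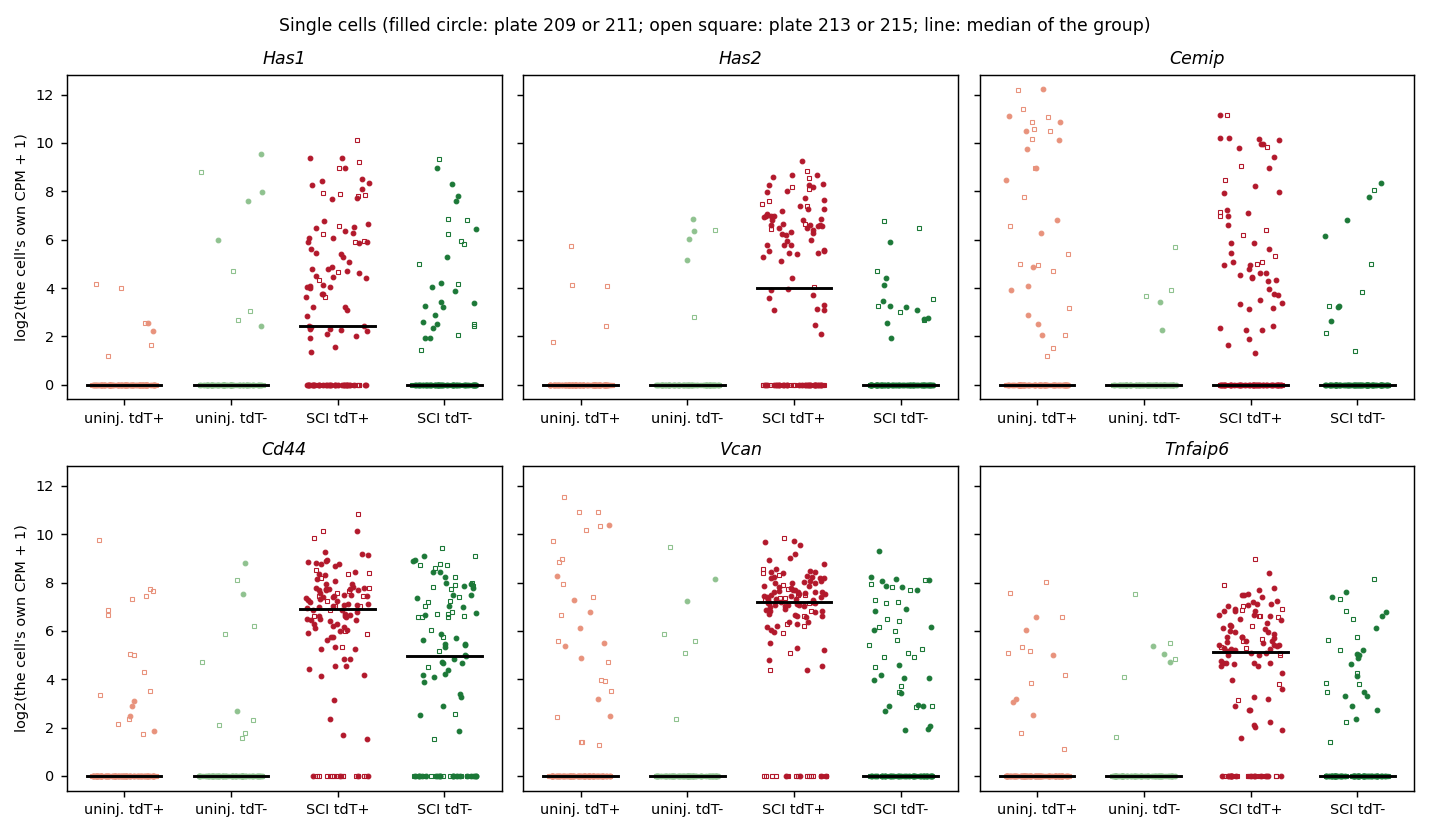
Each point is 1 kept cell, at log2 of its own CPM plus 1, for 6 genes in the 4 groups. Filled circles are plates 209 and 211, open squares plates 213 and 215, and lines the group medians; the medians of *Has1*, *Has2*, *Cd44*, *Vcan* and *Tnfaip6* leave 0 in injured tdTomato+ cells, whereas *Cemip* keeps a median of 0 in all groups and its highest cells, up to 4771 CPM, are uninjured tdTomato+ cells.

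*Cemip*, whose protein binds hyaluronan and is needed for its breakdown by skin fibroblasts, differed between the sorts on every plate. It was at 254 and 305 CPM on plates 209 and 213 in uninjured tdTomato+ cells and at 0.347 and 1.53 CPM in uninjured tdTomato- cells. After injury it was at 118.7 and 168.1 CPM on plates 211 and 215 in tdTomato+ cells and at 17.6 and 4.09 CPM in tdTomato- cells. Every tdTomato+ plate lay above every tdTomato- plate. The difference between the sorts was 7.05 before injury (6.92 and 7.57 on the plates) and 3.41 after it (2.68 and 5.05).

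The injury effects on *Cemip* had opposite signs in the sorts. In tdTomato+ cells the level was 284 CPM (279 to 289) before and 121.3 CPM (117.5 to 125.2) after injury, a difference of -1.22 (-1.36 to -0.59 over the plate pairs), but TMM factors made this -0.55, so it was not past 2-fold under that scaling. In tdTomato- cells the level was 1.15 CPM (0.783 to 1.64) before and 10.5 CPM (9.31 to 11.9) after injury, a difference of 2.42 (1.01 to 3.79), and 1 cell held 53.3% of the injured counts. While the summed level in tdTomato+ cells was lower after injury, the share of cells with a count was higher, at 24.8% (17.8% to 32.9%) before and 47.5% (38.4% to 56.8%) after. After thinning the shares were 18.9% and 31%. Before injury 18 cells were at 100 CPM or more and held 99.1% of the counts, with the highest cell at 4771 CPM. After it 22 cells were at 100 CPM or more, with 93.2% of the counts and the highest cell at 2294 CPM.

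*Hyal1*, a lysosomal hyaluronidase, was lower after injury in both sorts. It was at 116.8 and 125.4 CPM on plates 209 and 213 in uninjured tdTomato+ cells, against 14.8 and 31.6 CPM on plates 211 and 215 in injured ones. In tdTomato- cells it was at 50.7 and 98.2 CPM before and 24.9 and 29.9 CPM after injury. No injured plate reached an uninjured plate of its sort. The differences were -2.88 (-3.00 to -1.85) and -1.56 (-1.94 to -0.74), and with TMM factors they were -2.22 and -1.28. The difference between them, -1.32 (-1.90 to -0.27), was -0.95 with TMM factors and -0.47 without plate 211.

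The share of cells with *Hyal1* at 100 CPM or more was 32.8% and 25.5% in the uninjured sorts and 6.80% in injured tdTomato- cells. No injured tdTomato+ cell reached it (a count of 0 allows a share of up to 2.46%), and the highest was at 98.2 CPM. *Naa80*, the N-terminal acetyltransferase gene that overlaps *Hyal1*, was the gene most like it across the uninjured tdTomato+ cells (Pearson's r 0.90), and how reads in the shared stretch were assigned is not known.

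*Hyal2*, a hyaluronidase anchored to the cell surface, was at 92.6 CPM (89.5 to 95.7) and 77.4 CPM (74.1 to 80.8) in the uninjured sorts and at 87.8 CPM (84.5 to 91.1) and 89.6 CPM (85.9 to 93.3) in the injured ones. Its lowest plate, at 50.7 CPM, was plate 209 of tdTomato- cells, its highest, with an interval that began at 113.2 CPM, plate 215 of tdTomato- cells, and the groups overlapped. No comparison was past 2-fold, and all 5 were between -0.28 and 0.26. The same level was spread over more cells after injury: *Hyal2* had a count in 48.2% (39.6% to 56.9%) of uninjured and 81.1% (73.1% to 87.7%) of injured tdTomato+ cells, and after thinning in 38.6% and 74%. In tdTomato- cells the thinned shares were 27.2% and 56.9%.

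*Cd44*, the main cell-surface receptor for hyaluronan, was higher after injury in both sorts. It was at 0.249 and 16.03 CPM on plates 209 and 213 in uninjured tdTomato+ cells and at 3.94 and 11.9 CPM in uninjured tdTomato- cells. After injury it was at 183 and 326 CPM on plates 211 and 215 in tdTomato+ cells and at 107.4 and 141.9 CPM in tdTomato- cells. All injured plates lay above all uninjured plates. The injury differences were 4.20 (3.44 to 8.03) and 3.61 (3.07 to 4.86), and the difference between them, 0.59 (0.37 to 3.18), was not past 2-fold. Without plate 213 the difference in tdTomato+ cells was 7.26.

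A count of *Cd44* was found in 85.2% (77.7% to 91.02%) of injured tdTomato+ and 66.99% (57.03% to 75.9%) of injured tdTomato- cells, against 13.9% and 10.4% before injury. The median injured tdTomato+ cell was at 120.3 CPM and the median injured tdTomato- cell at 30.4 CPM. The thinned shares were 84% and 50.98% after injury and 3.94% and 4.35% before it. The uninjured levels leaned on few cells, with 1 cell holding 30.9% of the counts in tdTomato+ and 71.03% in tdTomato- cells.

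*Vcan* encodes versican, a large proteoglycan that binds hyaluronan through its end. It was higher in tdTomato+ than in tdTomato- cells on every plate: 26.1 against 9.15 CPM on plate 209, 186 against 27.2 CPM on plate 213, 201 against 52.04 CPM on plate 211 and 160.4 against 37.5 CPM on plate 215. The sort differences were 2.42 before injury and 2.13 after it. In tdTomato+ cells the uninjured plates lay far apart, the higher of them within the range of the injured plates, and the injury difference of 0.73 had both signs among the plate pairs (-0.21 to 2.89). In tdTomato- cells the injury difference was 1.02 (0.45 to 2.39), which was 0.69 without plate 209 and 0.78 without plate 211, and 2.89 without the highest cell of each group, since 1 cell held 79.5% of the uninjured counts.

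The cells that carried *Vcan* differed more than its summed level did. In uninjured tdTomato+ cells 21.9% (15.3% to 29.8%) had a count, 15 cells at 100 CPM or more held 97.9% of the counts and the highest reached 2983 CPM. In injured tdTomato+ cells 84.4% (76.8% to 90.4%) had a count, 81 cells were at 100 CPM or more, the median cell was at 145.6 CPM and the highest at 916 CPM. Thinned, the shares were 14.2% and 80%, and 6.52% and 26.5% in tdTomato- cells.

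*Tnfaip6* encodes TSG-6, a secreted protein that moves heavy chains of inter-alpha-inhibitor onto hyaluronan. It was at 4.35 and 13.3 CPM on plates 209 and 213 in uninjured tdTomato+ cells and at 54.9 and 71.5 CPM on plates 211 and 215 in injured ones. In tdTomato- cells it was at 2.08 and 9.15 CPM before and 16.5 and 17.5 CPM after injury. Injured plates lay above the uninjured plates of the same sort, and the injured tdTomato+ plates above all others. The injury differences were 2.43 (1.97 to 3.76) and 1.19 (0.78 to 2.58), and the difference between them was 1.24 (0.88 to 1.48) and 0.76 without the highest cell of each group. A count was found in 73.8% (65.04% to 81.3%) of injured tdTomato+ and 29.1% (20.6% to 38.9%) of injured tdTomato- cells, against 11.7% and 7.55% before injury. After thinning the shares were 56% and 15.7%, and 7.09% and 5.43% before injury.

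*Hapln1*, a link protein that clamps proteoglycans to hyaluronan in cartilage and perineuronal nets, was nearly without counts. There were 4 counts in 2 uninjured tdTomato+ cells and 1 count in 1 injured tdTomato- cell. Uninjured tdTomato- and injured tdTomato+ cells had a count in 0 cells, which allows shares of up to 2.83% and 2.46%. No fold is given for it.

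**Figure D3:**
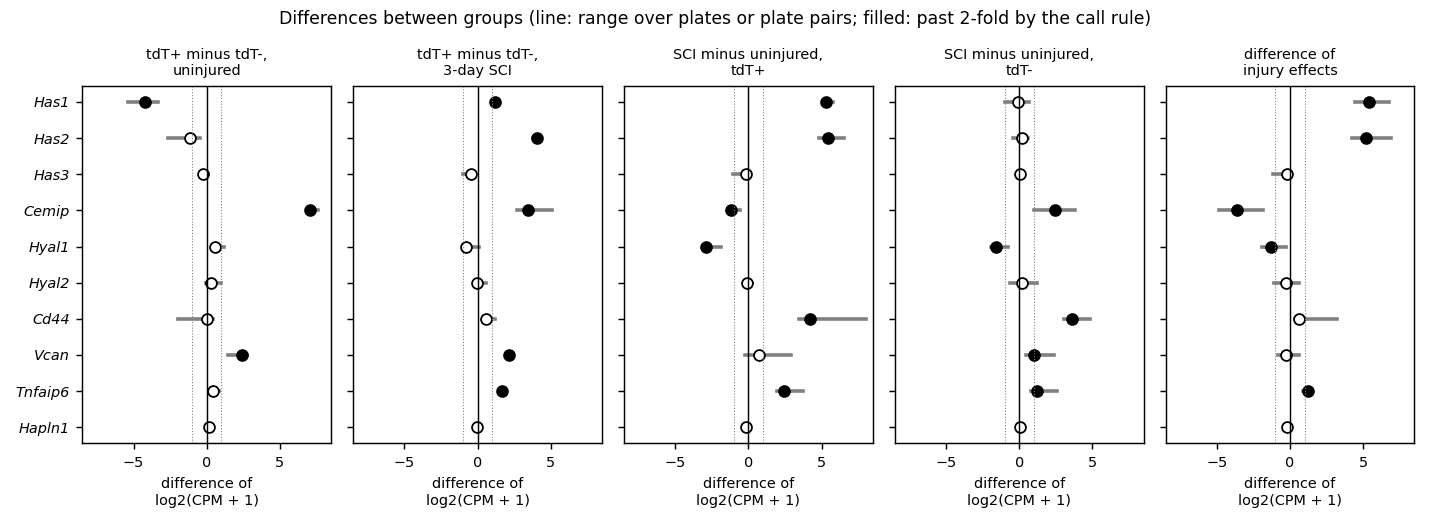
Difference of log2(CPM + 1) of each gene in the 5 comparisons, with a dotted line at 1 on either side of 0. Points are the groups, grey lines the range over 2 plates or 4 plate pairs, and filled points are past 2-fold by the rule; *Has1* and *Has2* are filled far to the right for injury in tdTomato+ cells (5.33 and 5.42) and lie near 0 for injury in tdTomato- cells.

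**Figure D4:**
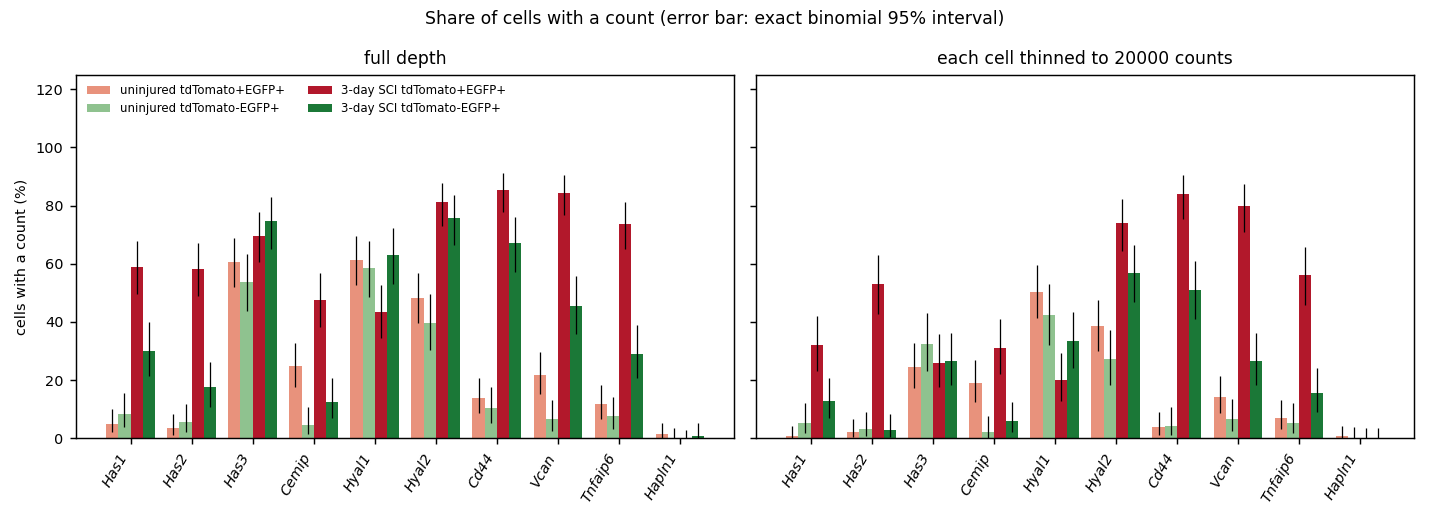
Percent of kept cells with a count of each gene in the 4 groups, at full depth (left) and with each cell thinned to 20000 counts (right), with exact binomial 95% intervals. The thinned shares of *Has2*, *Cd44*, *Vcan* and *Tnfaip6* in injured tdTomato+ cells (53%, 84%, 80% and 56%) stand above those of all other groups.

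Several of these genes were detected in the same cells after injury. *Has1* or *Has2* was found with *Cd44* in 81 injured tdTomato+ cells (66.4%, 57.3% to 74.7%), in 33 injured tdTomato- cells (32.04%, 23.2% to 41.96%) and in 3 cells of each uninjured group. After thinning the shares were 59% and 8.82% in the injured groups, and 1.57% and 2.17% in the uninjured ones. The 3 binding genes *Cd44*, *Vcan* and *Tnfaip6* were found together in 65.6% (56.4% to 73.9%) of injured tdTomato+ and 16.5% (9.92% to 25.1%) of injured tdTomato- cells. Thinned, they were together in 43% and 2.94%. The median injured tdTomato+ cell had counts of 7 of the 10 genes and the median injured tdTomato- cell of 4, against 2 in either uninjured group. After thinning the medians were 5, 2, 1 and 1. Detection over all genes was also higher after injury: the median cell had 9189.5 detected genes in injured and 6957 in uninjured tdTomato+ cells. In tdTomato- cells it had 7831 and 6730. The part of this in the shares of cells with a count, here and above, was not tested.

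The overlap of *Has1* or *Has2* with *Cemip* depended on depth. At full depth, *Has1* or *Has2* without *Cemip* was found in 35.2% (26.8% to 44.4%) of injured tdTomato+ cells, *Cemip* without either synthase in 10.7% (5.80% to 17.5%), and both in 36.9% (28.3% to 46.1%), so that 45 of the 58 cells with *Cemip* also had a synthase count. In uninjured tdTomato+ cells both were found in 5 cells (3.65%, 1.20% to 8.31%), of 12 with *Has1* or *Has2*. Thinning leaves fewer counts in which to find both. In thinned injured tdTomato+ cells, the shares in the same order were 49% (38.9% to 59.2%), 17% (10.2% to 25.8%) and 14% (7.87% to 22.4%). In thinned uninjured tdTomato+ cells the first 2 shares were 3.15% and 18.9%, and no cell held both (exact upper bound 2.86%).

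Cells were clustered with the 10 genes left out, which gave 6 clusters, described by number. Cluster 4 (70 cells) was perivascular fibroblast-like, with 8 of 8 markers higher than in all other cells, and also had 4 of 7 stromal fibroblast markers. Cluster 1 (99 injured tdTomato+, 18 injured tdTomato- and few uninjured cells) had 5 of 8 perivascular fibroblast, 5 of 7 stromal fibroblast and 6 of 6 cycling markers, with cycling genes in the lead, and was left unnamed. Clusters 2 and 3 (58 and 39 uninjured tdTomato+ cells, 48 and 26 uninjured tdTomato- cells and few injured ones) had 8 of 9 pericyte and 5 of 5 endothelial markers and were left unnamed. Cluster 5 (48 cells, 47 of them injured tdTomato-) was pericyte-like with 7 of 9 markers but also 4 of 7 stromal fibroblast markers, and, coming almost wholly from 1 group, may be that group and not a type. Cluster 6 (18 cells) was vSMC-like with 5 of 6 markers. The uninjured cells of cluster 1 (11 tdTomato+ and 10 tdTomato-) were shallow, with median counts of 3812 and 2206 in the 2 sorts. These are the clusters at resolution 0.5, where resolution sets how finely the cells are divided. At resolution 0.3, clusters 1 and 4 were 1 cluster of 208 cells, so a split of counts between them holds for the finer divisions only, and at 0.8 cluster 4 held 74 cells and the 2 were again apart.

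*Cemip* lay mostly in cluster 4, whose cells held 92.5% of all its counts. In cluster 4 it was at 1219 CPM in 26 uninjured and 669 CPM in 18 injured tdTomato+ cells, but at 23.2 CPM in 18 injured tdTomato- cells of the same cluster. A count was found in 21, 16 and 6 of those cells. In cluster 1 it was at 30.6 CPM in 99 injured tdTomato+ and 30.4 CPM in 18 injured tdTomato- cells, where 1 cell held 96% of the counts of the latter. In clusters 2 and 5 it was at 1.70 and 0.0883 CPM, and in cluster 6 it had no count.

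*Has2* lay in cluster 1, which held 92.3% of its counts. There it was at 105.9 CPM in 99 injured tdTomato+ cells, 64 of which had a count, and at 14.6 CPM in 18 injured tdTomato- cells. In cluster 4 it was at 4.76 and 7.86 CPM in tdTomato+ cells before and after injury and at 3.11 CPM in injured tdTomato- cells. *Has2* had 2 counts in cluster 2 and none in cluster 6.

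At resolution 0.5 the counts of *Has1* lay in different clusters in the sorts. Cluster 1 held 92.8% of its counts in injured tdTomato+ cells, where it was at 64.97 CPM, and cluster 4 held 82.5% of its counts in injured tdTomato- cells, where it was at 107.8 CPM with a count in 12 of 18 cells. In cluster 4 of injured tdTomato+ cells it was at 5.61 CPM, with a count in 5 of 18 cells, and in uninjured tdTomato+ cells of cluster 4 it had 1 count. Of the injured tdTomato- counts in cluster 4, 1 cell held 30.96%. At resolution 0.8 the shares were 92.6% in cluster 1 for injured tdTomato+ cells and 88.9% in cluster 4 for injured tdTomato- cells. At resolution 0.3 the merged cluster held 94.2% and 94.6% of the counts in these sorts, at 56.3 and 61.1 CPM. This cluster had 7 of 8 perivascular fibroblast markers. It also held 95.7% of the *Has1* counts of uninjured tdTomato- cells, at 260.2 CPM in 18 cells. Of these cells 5 had a count, and 1 held 45.4% of the counts. *Has2* in its tdTomato- cells was at 36.01 CPM before injury, with 56.99% of the counts in 1 cell, and at 8.92 CPM after it. Within this cluster both genes were lower after injury in tdTomato- cells.

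Among the binding genes, *Cd44* was at 210.3 and 198 CPM in the injured sorts of cluster 1, at 97.7 and 89.2 CPM in those of cluster 4 and at 133.5 CPM in cluster 5 (47 of 48 cells injured tdTomato-). In clusters 2 and 3 it was at 4.99 and 2.79 CPM, and its 66.8 CPM in cluster 6 came to 99.7% from 1 cell. *Vcan* was at 514 CPM in uninjured and 299.7 CPM in injured tdTomato+ cells of cluster 4, at 183 CPM in injured tdTomato+ cells of cluster 1 and at 5.12 CPM in cluster 5. *Tnfaip6* was at 60.1 and 42.96 CPM in the injured sorts of cluster 1 and at 39.3 CPM before and 30.5 CPM after injury in tdTomato+ cells of cluster 4, against 3.52 CPM in its injured tdTomato- cells. *Hyal1* was at 101.8 and 90.5 CPM in the uninjured sorts of cluster 2, at 218 CPM in uninjured and 31.9 CPM in injured tdTomato+ cells of cluster 4, and at 122.8 CPM in uninjured tdTomato- cells of cluster 6. *Hyal2* and *Has3* had counts in every cluster, at 33.2 to 109.1 CPM and at 10.9 to 22.9 CPM. The merged cluster at resolution 0.3 held 99.8% of the *Vcan* and 78.4% of the *Tnfaip6* counts of uninjured tdTomato- cells. In its tdTomato- cells *Vcan* was at 222.2 CPM before and 110.6 CPM after injury, and *Tnfaip6* at 56.1 and 23.5 CPM. Both were lower after injury there, unlike their summed levels over all tdTomato- cells. Of these uninjured counts, 1 cell held 79.6% and 82.1%. *Cd44* and *Cemip* were higher after injury in tdTomato- cells of this cluster.

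**Figure D5:**
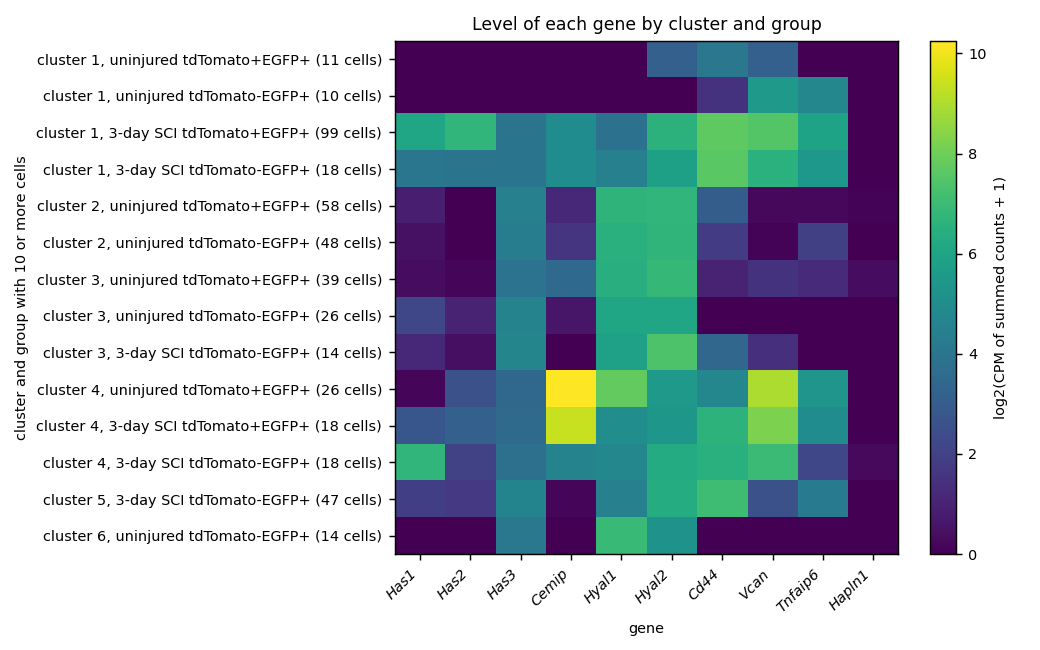
Heat map of log2(CPM of summed counts + 1) of the 10 genes (columns) in each cluster and group with 10 or more cells (rows), on 1 colour scale from 0. The brightest cells are *Cemip* in cluster 4 of tdTomato+ cells (1219 CPM uninjured, 669 CPM injured), and *Has2* reaches 105.9 CPM in cluster 1 of injured tdTomato+ cells and at most 14.6 CPM in any other row.

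The other genes of the hyaluronan pathway were read from a list of 42 genes. In tdTomato+ cells 8 of the 28 that reached 10 CPM were past 2-fold higher after injury and 10 were lower, and in tdTomato- cells 8 and 5 of 30, with the shares over all genes as given above. Of the 7 listed genes that make the precursor sugars, 5 were past 2-fold higher after injury in tdTomato+ cells and 3 in tdTomato- cells. *Ugdh*, which makes UDP-glucuronic acid, was at 37.9 CPM before and 187 CPM after injury in tdTomato+ cells (2.27) and at 58.1 and 154.1 CPM in tdTomato- cells (1.39). *Gfpt2*, an isoform of the first enzyme towards UDP-N-acetylglucosamine, was at 6.90 and 111.2 CPM in tdTomato+ cells (3.83) and at 36.1 and 51.7 CPM in tdTomato- cells. *Gfpt1* (1.53 and 1.18) and *Pgm3* (1.22 and 1.19) were higher in both sorts, and *Gnpnat1* in tdTomato+ cells (1.23). *Ugp2*, which makes UDP-glucose, was at 88.3 CPM before and 47.3 CPM after injury in tdTomato+ cells (-0.89, below 0 in all 4 plate pairs) and at 94.7 and 119.9 CPM in tdTomato- cells (0.34), and it was past 2-fold lower in tdTomato+ than tdTomato- cells after injury (-1.32) and for the difference of the injury effects (-1.22). *Uap1*, the last enzyme towards UDP-N-acetylglucosamine, was at 62.2 and 39.3 CPM in tdTomato+ cells (-0.65) and at 75.2 and 54.7 CPM in tdTomato- cells (-0.45), below 0 in all 4 plate pairs of either sort.

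Between the sorts *Gfpt2* had the same order as *Has1*, lower in tdTomato+ cells before injury (-2.23) and higher after it (1.09). In the family of heavy chains that TSG-6 transfers, *Itih2* was at 123.8 CPM in uninjured and 51.8 CPM in injured tdTomato+ cells (-1.24, -1.57 to -0.01 over the plate pairs). It was at 14.95 and 72.8 CPM in tdTomato- cells (2.21, 0.95 to 2.93), opposite signs in the sorts as for *Cemip*. Between the injured sorts its summed difference was -0.48, but 0.04 and 0.32 on the plates. *Itih3* was at 12.6 and 168 CPM in tdTomato+ cells (3.64) and at 17.4 and 4.99 CPM in tdTomato- cells, where the plate pairs had both signs. *Itih5* was lower after injury in both sorts, from 1755 to 696 CPM (-1.33) and from 1095 to 355 CPM (-1.62).

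Of the other breakdown genes, *Cemip2*, a cell-surface relative of *Cemip*, was at 79.3 and 46.2 CPM before and after injury in tdTomato+ cells and at 70.03 and 79.1 CPM in tdTomato- cells, with no comparison past 2-fold. *Hyal3*, which overlaps *Hyal1*, was at 17.9 and 4.24 CPM in tdTomato+ cells (-1.85). Among receptors, *Hmmr*, which is also a spindle protein of dividing cells, was at 0.443 and 101.6 CPM in tdTomato+ cells (6.15) and at 47.1 CPM in injured tdTomato- cells against 0 counts before injury, and *Stab1*, a scavenger receptor, was lower in both sorts (-3.34 and -1.94). *Lyve1*, another hyaluronan receptor, was at 16.5 CPM in injured tdTomato- cells and 0.964 CPM in injured tdTomato+ cells (-3.16). *Susd5* was at 61.6 CPM in uninjured tdTomato- cells and between 0.0321 and 0.156 CPM in the other groups, and was among the 10 leading genes of cluster 6.

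Some proteases that cut versican differed between the sorts after injury. *Adamts4* was at 17.3 CPM before and 564 CPM after injury in tdTomato- cells (4.95) and at 29.9 and 139.3 CPM in tdTomato+ cells (2.18), a difference of -2.76 (-3.38 to -2.06). *Adamts9* was at 31.8 and 99.1 CPM in tdTomato- cells (1.61) and at 42 and 15.5 CPM in tdTomato+ cells (-1.38). *Adamts5* was at 36.3 and 59.1 CPM in tdTomato+ cells and at 85.9 and 46.1 CPM in tdTomato- cells, and the difference of the 2 effects was 1.57. Of the proteins that link CD44 to the cytoskeleton, *Msn* was higher in tdTomato- cells after injury (1.13) and *Ezr* lower in tdTomato+ cells (-1.05).

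The genes most like each member were sought over the cells of the group in which the member was highest, among genes with a count in 20% or more of those cells, by the Pearson correlation of ln(1 + counts per 10000) centred per plate, and named at r of 0.4 or more. Across the uninjured tdTomato+ cells *Cemip* was closest to *Lama1* (r 0.92), *Enpp1* (0.85) and *Mfap4* (0.82), which are a laminin chain, a pyrophosphatase and a microfibril protein. Across the injured tdTomato+ cells *Has2* was closest to its overlapping gene *Has2os* (0.74), then to *Tomm20* and *Eef1e1* (0.55 each). *Has1* was closest to *Uck2* (0.53), *Cd44* to *Inhba* (0.58), *Vcan* to *Mmp19* (0.57) and *Tnfaip6* to *Apobec1* (0.47) over the same cells. Across the injured tdTomato- cells *Has3* was closest to *Chtf8* (0.73), which RefSeq places 960 bases from it. *Hyal2* reached 0.40 with *Cd200* over the uninjured tdTomato+ cells. These correlations share library, plate and depth within each cell and carry no test.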

How the data were processed

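Single cells were sorted into plates and sequenced by Smart-seq3. Per gene symbol and cell, the authors deposited raw counts (whole numbers) in 1 table, and the submitters' processing notes name mm10. The aligner, the annotation, strandedness and the nature of a count (read or molecule) are not given in the sources used here. Of 1968 cell columns, 1465 without a label were not used. The 92 spike-in rows (0.0314% of counts) stayed out of all totals. Cells were kept at 200 or more detected genes and under 20% mitochondrial counts, then removed where ln(1 + counts per 10000) of *Gfap* or *Ptprc* passed 1. A cell with *Pecam1* past 1 on this scale was removed only if *Pecam1* also exceeded *Pdgfrb*, so some cells with endothelial transcripts stayed. This left 468 of 503 (34 removed by *Pecam1*). The study states an upper limit of 1200 genes, which was used as an alternative only. When comparing uninjured with injured tdTomato- cells, the study left out a cluster of *Slc1a3*+ *Pdgfra*+ fibroblasts as unrecombined GLAST cells. No such cluster was removed here. Cells were sorted singly, so no doublet caller was run.

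Counts were summed per group and plate and scaled to CPM, a pseudocount of 1 was added, and no test was made. Shares were also taken after thinning each cell to 20000 counts, which left out the shallower cells and kept 127 of 137 uninjured and 100 of 122 injured tdTomato+ cells, and 92 of 106 and 102 of 103 tdTomato- cells. Intervals (95%, exact Poisson or Clopper-Pearson) and the limit of 3 counts behind a 0 cover counting error only, since PCR copies are not independent molecules. edgeR 4.0.16 (TMM) and DESeq2 1.42.0 gave scaling factors only, and Seurat 5.3.0 in R 4.3.3 gave clusters (2000 variable genes without the 10 genes, 20 principal components, resolution 0.5, with 0.3 and 0.8 as alternatives). A cluster was credited with a marker that exceeded its level in the remaining cells by 0.5 on the log2 scale and was detected in at least 50% of the cluster. The members, gene lists and rules were chosen with earlier results of these data known. The text names the 10 genes, the pathway genes past 2-fold, *Slc1a3* and *Pdgfrb*, and up to 3 most similar genes for each member. *Cemip2*, *Has2os* and neighbouring genes are given for their relation to a member, and *Uap1* to complete the precursor genes, after its values were seen.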

Additional observations from a re-analysis of the deposited data

Results flagged for a closer look

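The injury effect on *Cemip* had opposite signs in the sorts, with -1.22 on the log2 scale in tdTomato+ cells and 2.42 in tdTomato- cells, in all 4 plate pairs each. The difference was not tested, since each group is 1 sample. Of the injured tdTomato- counts, 1 cell held 53.3%. Spike-in RNA took 0.0984% of the counts of plate 211, in every labelled cell, and had no count on the other 3 plates. Plate 211 holds injured cells, and the part of this difference in the values was not tested.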

How the results depend on the processing

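All 24 differences of the 10 genes counted as past 2-fold kept their direction under TMM factors, DESeq2 size factors, a pseudocount of 10 CPM, averaging of CPM over cells, thinning to 20000 counts, all labelled cells and without the highest cell of each group. Between 20 and 24 of them stayed at 2-fold or more under these settings. With a plate left out, the direction was kept in 19 of 19 differences without plate 209 or 213 and in 21 of 21 without plate 211 or 215.

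The number of genes past 2-fold moved by over 1.5 times in these cases. At 4-fold it was 3 in place of 5 between the injured sorts, 2 in place of 5 for injury in tdTomato- cells and 3 in place of 5 for the difference of the injury effects. For injury in tdTomato- cells it was also 2 with a pseudocount of 10 CPM, 3 without plate 209 and 3 without plate 211. For the difference of injury effects it was 3 without the highest cell of each group. With at most 1200 genes detected, it was 0 in place of 3 between the uninjured sorts and 2 in place of 6 for injury in tdTomato+ cells, where *Cemip* reversed to 6.67. Under that limit the injured tdTomato+ cells were all of plate 215 and no injured tdTomato- cell remained, so the other 3 comparisons were not run. Beyond these, the cause of the changes was not tested. No paired analysis was possible because no result comes from a test and the labels give no replicate numbers to pair by. The sorts share plates, and their differences within each plate stand beside the values. Depth limits injured tdTomato+ cells of plate 215 most, with a median of 14770 counts.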

Other observations

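Among markers of other cell types, 4 neuron genes summed to 13.5 and 18.1 CPM in uninjured tdTomato+ and tdTomato- cells and to 392 and 468 CPM in the injured ones. The 6 meningeal markers summed to 91.2, 171, 698 and 619 CPM in the same order, with *Slc22a6* at 0 in every group but injured tdTomato+. At resolution 0.5, clusters 1 and 5 were each credited with 1 of the 4 neuron markers, and cluster 1 with 1 of the 6 meningeal markers. These sums therefore do not show that either list was higher as a whole. The 5 astrocyte markers summed to 92.04 and 299 CPM before and to 21.2 and 9.24 CPM after injury. The 6 oligodendrocyte lineage markers summed to 37.4 and 71 CPM before and to 2.31 and 3.94 CPM after injury, with *Olig1* and *Olig2* at 0 in both injured groups. The 6 vSMC markers summed to 934, 2992, 1360.4 and 2602 CPM and the 7 stromal fibroblast markers to 841, 869, 3872 and 3358 CPM. The part of these cell types in the levels of the hyaluronan genes was not tested.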
